A study of Homo sapiens with 8 samples.

Results

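The cytosolic ribosomal protein (RP) genes were taken by name, as the protein-coding genes with an RPL, RPS, RPLP or RPSA symbol in the deposited tables. They numbered 84 of the 20344 genes found in either table: 46 encode proteins of the large (60S) subunit, 31 encode proteins of the small (40S) subunit, and 7 are paralogs (RPL3L, RPL7L1, RPL10L, RPL22L1, RPL26L1, RPL39L and RPS27L). The ribosomal protein S6 kinases and the 2 Y-linked copies of RPS4X were left out. The rule that chose the members used names and no measured value. H9 hESCs (WA09), an established human embryonic stem cell line grown on Matrigel in mTeSR1 or TeSR-E8, were profiled by poly-A RNA-seq in 2 experiments with 2 libraries per group. In the crowding experiment, high-density hESCs (labelled crowded), grown to cover small Matrigel islands, were compared with low-density hESCs, whose label reads small. In the ETV4 KD experiment, hESCs with shRNA against ETV4 (shETV4) were compared with hESCs with control shRNA (shControl); ETV4 is an ETS-family transcription factor of the PEA3 group. All groups therefore shared 1 cell line. The labels do not say which hairpin was used, nor whether the libraries of a group came from separate cultures, so p-values measure only the spread between these libraries, which may be technical.

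RPs assemble with ribosomal RNA in the nucleolus into the 40S subunit, which reads the mRNA, and the 60S subunit, which forms the peptide bond. Most of their mRNAs start with a cytosine within a short run of pyrimidines, the 5′ terminal oligopyrimidine (TOP) motif, through which mTORC1 and the RNA-binding protein LARP1 control their translation and storage. RP genes are transcribed together by RNA polymerase II at high rates, and their dosage is known for its role in Diamond-Blackfan anaemia and in the nucleolar stress response, in which free RPL5 and RPL11 bind the p53 inhibitor MDM2.

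RefSeq start regions (GRCh38.p14) were matched for 67 of the 84 members. The following 7 windows run 5′ to 3′ from 110 bases before to 20 bases from the annotated start, which is counted as position 1. They show RPL24, RPL22L1 and RPL9, which had the largest rises after ETV4 KD, RPS26, RPL13A and RPL3, which changed after crowding, and RPS6, a much-used example of a TOP mRNA. Capitals mark runs of at least 8 pyrimidines near the start, the ETS core CCGGAAG and the YY1 core AAGATGG, each of the cores on either strand.
RPL24 (chr3:101686699-101686828, minus strand): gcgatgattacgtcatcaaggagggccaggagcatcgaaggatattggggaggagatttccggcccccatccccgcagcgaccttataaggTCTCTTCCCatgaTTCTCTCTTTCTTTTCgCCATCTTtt
RPL22L1 (chr3:170870176-170870305, minus strand): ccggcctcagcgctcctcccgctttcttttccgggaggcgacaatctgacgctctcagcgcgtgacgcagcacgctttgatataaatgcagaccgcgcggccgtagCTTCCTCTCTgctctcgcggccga
RPL9 (chr4:39458903-39459032, minus strand): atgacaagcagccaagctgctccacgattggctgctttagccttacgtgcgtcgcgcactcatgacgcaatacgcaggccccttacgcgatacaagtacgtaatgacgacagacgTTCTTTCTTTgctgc
RPS26 (chr12:56041808-56041937, plus strand): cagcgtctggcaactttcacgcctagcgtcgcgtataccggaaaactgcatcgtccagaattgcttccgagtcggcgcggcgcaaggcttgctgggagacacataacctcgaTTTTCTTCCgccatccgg
RPL13A (chr19:49487498-49487627, plus strand): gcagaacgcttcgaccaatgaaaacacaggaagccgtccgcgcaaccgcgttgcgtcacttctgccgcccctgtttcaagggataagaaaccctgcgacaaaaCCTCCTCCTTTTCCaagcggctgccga
RPL3 (chr22:39319604-39319733, minus strand): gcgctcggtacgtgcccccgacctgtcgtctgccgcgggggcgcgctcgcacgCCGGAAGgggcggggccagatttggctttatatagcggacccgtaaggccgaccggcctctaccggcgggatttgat
RPS6 (chr9:19380217-19380346, minus strand): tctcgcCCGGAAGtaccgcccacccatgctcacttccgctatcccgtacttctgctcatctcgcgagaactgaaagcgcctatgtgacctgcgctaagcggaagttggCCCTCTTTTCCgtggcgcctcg
The run of RPL24 from -6 to 10 and that of RPL13A from -7 to 7 hold the start itself, whereas those of RPL9 and RPS26 begin at 6 and at 3. RPL3 has no such run in this window and has an ETS core from -57 to -51. RPS6 has both, with an ETS core from -104 to -98 and a run from -2 to 9.

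Pyrimidine runs of at least 5 bases that hold the annotated start were found in 45 of the 67 members (67.2%), against 8.07% of 15843 protein-coding start regions of the same length (250 bases before and 50 bases from the start). Runs of at least 8 pyrimidines between 20 bases before and 30 bases after the start were found in 82.1% of the members and in 18.7% of all regions. The ETS core CCGGAAG, on either strand, was present in 23 members (34.3%) and in 14.2% of all regions. For the YY1 core AAGATGG the shares were 13.4% and 6.4%, and for the SP1 box GGGCGG they were 53.7% and 58.5%. A TATAAA box on the sense strand within 50 bases before the start was present in 5.97% and 3.89%. RP start regions thus held pyrimidine runs and ETS cores more often than the average start region, as a description of letters and not of binding.

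RP mRNAs were among the most abundant transcripts in all libraries. Their median level was 647 FPKM in the crowding table and 870 FPKM in the ETV4 KD table, against 4.21 and 4.32 FPKM for all genes. Averaged over the 8 libraries, RPS2 had the highest level (2012 FPKM), followed by RPS18 (1880 FPKM), RPL3 (1622 FPKM), RPLP0 (1593 FPKM) and RPL8 (1498 FPKM). These encode, in turn, a protein near the mRNA entry tunnel, a protein of the 40S head, a protein at the peptidyl transferase centre, the base of the P stalk that recruits elongation factors, and a core 60S protein. The lowest levels were those of paralogs: RPL3L, the muscle form of RPL3, averaged 0.0737 FPKM, RPL10L, the testis form of RPL10, 0.0823 FPKM, RPS27L 9.07 FPKM, RPL26L1 24.9 FPKM and RPL39L 29.3 FPKM. The 2 tables were normalized separately, so levels set across them are approximate.

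The order of FPKM among members also followed the transcript length that the FPKM values implied (reads divided by FPKM and by the library total). This length ranged from 0.406 kb for RPS27 to 8.11 kb for RPL14 in the crowding table, although RP mRNAs are short. The 21 members of 2 kb or more had a median of 172 FPKM and 28110 reads, and the 62 members under 2 kb had 762 FPKM and 32579 reads. RPL14, a 60S protein, had 30300 to 36675 reads but only 72.2 to 74.3 FPKM, and RPL37, another 60S protein, had an implied length of 6.0 kb in one table and 4.63 kb in the other. Differences within a gene were therefore tested on counts.

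At low density, RP genes took up 5.27% and 5.31% of all counted reads, and at high density 5.49% and 5.65%. The shares were 6.54% and 6.81% with shControl and 7.26% and 7.96% with shETV4. Both test groups lay above their controls without overlap, by 0.276 percentage points on average for crowding and by 0.934 for ETV4 KD. With 2 libraries against 2 no permutation test could reach 0.05, and these differences were not tested. The 60S genes together held 1.56 to 1.64 times the reads of the 40S genes in every library, with 1.58 and 1.58 at low density and 1.64 and 1.64 at high density. In bulk RNA, a change in RP mRNA per cell and a change in the mix of cells cannot be told apart.

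**Figure D1:**
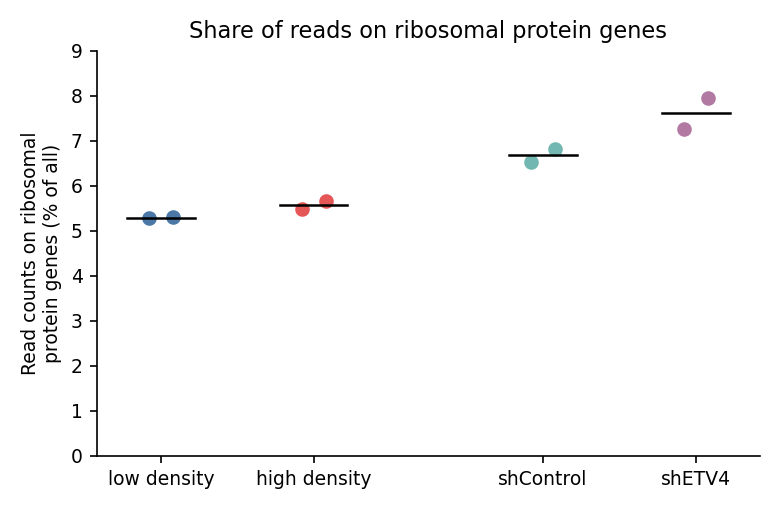
Share of all counted reads (%) that fell on RP genes in each of the 8 libraries, by group. Points are libraries and bars are the means of 2 libraries; the shETV4 libraries, at 7.26% and 7.96%, are the highest of the 8.

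Library totals ran from 50359703 to 62410168 counted reads. All 10 pluripotency markers were present, with a summed level of 3483 to 3613 FPKM at low density, 3596 to 3730 FPKM at high density, 2962 to 3132 FPKM with shControl and 3120.2 to 3158 FPKM with shETV4; 4 rose and 3 fell in crowded hESCs (-0.46 to 0.41), and 1 rose and 3 fell after ETV4 KD (-0.82 to 0.51). Only 5 of the 8 neuroectoderm markers were present in each experiment, and PAX6 was absent from the ETV4 KD one. They summed to 0.825 to 0.828 FPKM at low density and 0.938 to 0.947 FPKM at high density. Of 4 tested there, 2 rose and 1 fell (-1.55 to 2.27). The sum was 1.67 to 1.96 FPKM with shControl and 0.641 to 0.663 FPKM with shETV4, where 1 of 3 tested fell. Mesendoderm markers (5 of 8 present for crowding, 4 of 8 for ETV4 KD) summed to 0.960 to 1.22 FPKM at low density and 0.762 to 0.780 FPKM at high density. With shControl they summed to 0.493 to 0.865 FPKM and with shETV4 to 0.650 to 0.781 FPKM. Extraembryonic and fibroblast markers summed to 116 and 119 FPKM at low density, 86.1 and 86.9 FPKM at high density, 155 and 158 FPKM with shControl and 119 and 128 FPKM with shETV4, with 5 of the 10 markers absent from each table. THY1 and COL1A1 made up most of that sum, so it describes mainly these 2 genes and gives no share of other cells. The summed level was lower in both test groups, while 1 marker rose and 2 fell in each comparison. COL1A1 fell by 0.44 in crowded hESCs and rose by 1.00 after ETV4 KD. The part of these markers in the results was not tested. ETV4 fell from 90.8 and 95.1 FPKM with shControl to 45.6 and 40.9 FPKM with shETV4 (log2 fold change -1.15 ± 0.07 SE, edgeR adjusted p = 0.000161), and from 73.2 and 72.6 FPKM to 54.2 and 53.9 FPKM in crowded hESCs (-0.49 ± 0.06, adjusted p = 9.42e-07).

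The crowding comparison asked how hESCs respond when the adhesive area is limited. RP genes as a group were centred near 0: 7 of the 83 members tested rose, 7 fell and 69 did not pass the test (edgeR quasi-likelihood test, adjusted p below 0.05 over 17672 genes), whereas 19.4% of all genes tested rose and 20.3% fell, 39.7% in all. The median log2 fold change was -0.01 for the members and 0.00 for all genes, and the middle members lay between -0.06 and 0.06, in a narrower band than the -0.21 to 0.28 of all genes. Of the 46 60S members 6 rose and 1 fell, and of the 31 40S members 1 rose and 3 fell. The other 3 that fell were among the 6 paralogs in the table. At an unadjusted p below 0.05, 9 members were higher and 8 lower (all genes: 23.7% and 24.1%). Both crowded libraries lay above both low-density libraries in 26 members and below them in 29, against 35.4% and 35.3% of all genes. The split between higher and lower members depended on the scaling: 16 rose and 5 fell with library totals in place of TMM factors, and 13 rose and 3 fell in a limma fit of log2(FPKM + 0.5), with medians of 0.04 and 0.06. Over all genes 22.9% rose with library totals and 21.5% in that limma fit, against 19.4%. Without low density replicate 1 the median of the members was 0.0086, and rises were fewer among the members and over all genes.

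Among the members that rose in crowded hESCs, RPL13A, a 60S protein also known from the interferon-dependent translational silencing complex, had 1042 and 1030.3 FPKM at low density and 1295 and 1340 FPKM at high density. Its log2 fold change was 0.29 ± 0.04 (SE, n = 2 libraries per group, adjusted p = 1.97e-05). RPL3, which lies at the peptidyl transferase centre, had 1194 and 1188 FPKM at low density and 1440.1 and 1512 FPKM at high density (0.25 ± 0.04, adjusted p = 7.0e-05). In both genes each crowded library exceeded each low-density library. RPS27, a zinc-binding 40S protein, had 832 and 951 FPKM against 1081 and 1114 FPKM (0.24 ± 0.06, adjusted p = 0.00249). The other 4 were 60S proteins with smaller rises: RPL13 (0.19), RPL7A (0.17), RPL15 (0.15) and RPL12 (0.15, adjusted p = 0.0199). RPL13A, RPL3 and RPL7A passed the test under all 15 alternative settings and RPL12 under 12 of them, and RPS27 lost its call without low density replicate 1 (0.15, adjusted p = 0.139).

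RPL22L1, the paralog of the 60S protein RPL22, showed the largest fall and was the only member past the DEG threshold (a log2 fold change beyond 0.5 in either direction, with an adjusted p below 0.05), which 16.1% of all genes passed. It had 38.6 and 42.7 FPKM (mean 40.6 ± 2.84 SD) at low density and 28.0 and 27.7 FPKM (27.9 ± 0.197) at high density, a change of -34.1% (log2 fold change -0.60 ± 0.06, adjusted p = 1.72e-07). Both crowded libraries were below both low-density libraries, and the fall stayed past the test under all 15 alternative settings (-0.67 to -0.53). RPS26, a 40S protein at the mRNA exit that is mutated in Diamond-Blackfan anaemia, fell from 176 and 181 FPKM to 151 and 144 FPKM (-0.34 ± 0.06, adjusted p = 8.27e-05). Its libraries did not overlap either. RPS27L, a p53-induced paralog of RPS27, fell by 0.31 (adjusted p = 0.00143) from 8.81 and 8.52 FPKM to 6.73 and 7.81 FPKM, and RPL7L1 fell by 0.29 (adjusted p = 0.00158) from 35.3 and 32.7 FPKM to 30.4 and 27.3 FPKM. RPS27L passed under 11 of the 15 settings. The span of RPS27L overlaps that of LACTB, and a strand setting for the counting is not given in the sources used here.

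Smaller falls included those of RPS4X (-0.18 ± 0.05, adjusted p = 0.00446), the X-linked 40S protein, and RPL6 (-0.13 ± 0.05, adjusted p = 0.0284), a 60S protein. RPS4X had 542 and 537 FPKM at low density and 506 and 486 FPKM at high density, and passed under 10 of the 15 settings. For RPL6 the deposited FPKM values of the groups overlapped, at 797 and 755 against 744 and 780.0, and its call was lost under 8 of the 15 alternative settings. RPS4X shares part of its span with PIN4, and RPL6 with PTPN11.

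RPL5, RPL11, RPS6, RPS19, the P-stalk proteins, RPS27A and RPSA had log2 fold changes near 0 in crowded hESCs. RPL5 had 820 and 792 FPKM at low density and 830 and 865 FPKM at high density (0.02 ± 0.05, adjusted p = 0.827), and RPL11 had 664 and 657 FPKM against 686 and 674 FPKM (-0.01 ± 0.05, adjusted p = 0.845). RPS6, the substrate of S6 kinase, had 768 and 759 FPKM against 820.1 and 832 FPKM (0.06 ± 0.04, adjusted p = 0.321). None of these passed the test. RPS19, the RP most often mutated in Diamond-Blackfan anaemia, had 252 and 256 FPKM against 256 and 266 FPKM (-0.01 ± 0.05). The P-stalk proteins RPLP0, RPLP1 and RPLP2 had log2 fold changes of 0.07, -0.09 and 0.05, and the ubiquitin fusion RPS27A and the laminin-receptor protein RPSA had -0.03 and 0.03.

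**Figure D2:**
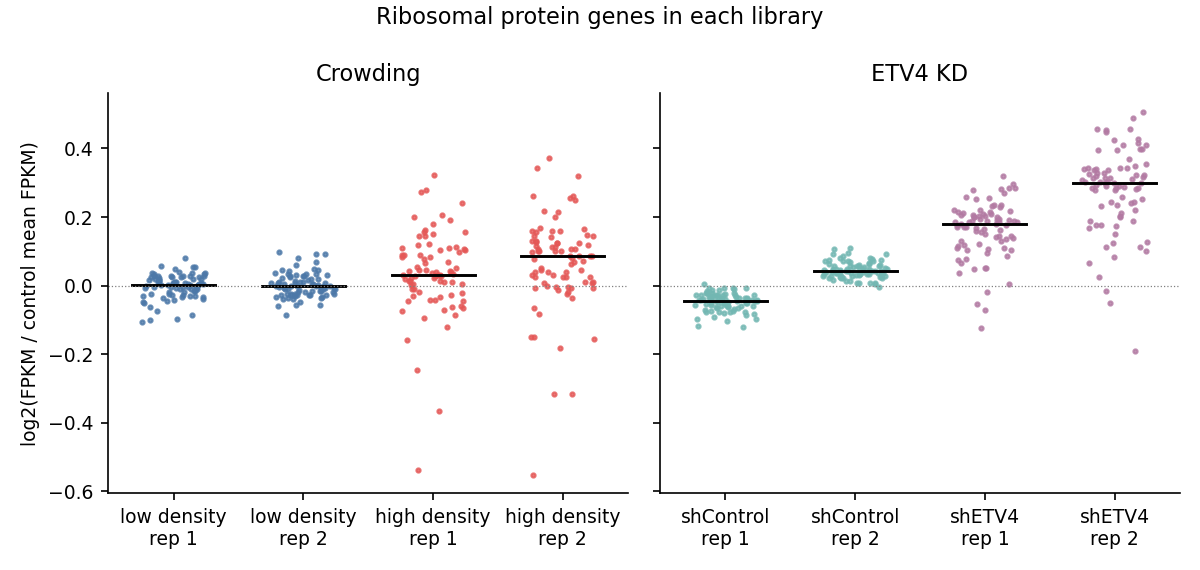
Log2 ratio of each member's FPKM to the mean FPKM of the control libraries, in every library of the crowding (left) and ETV4 KD (right) experiments; points are members with a mean of at least 1 FPKM (RPL3L and RPL10L are not drawn), and bars are medians. In crowded hESCs a few members spread upwards and a few downwards around a median near 0. In ETV4 KD hESCs nearly all members lie above the controls, more so in replicate 2.

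The ETV4 KD comparison asked which transcripts depend on ETV4 in hESCs. RP genes moved upwards together: 23 of 83 members tested rose, 0 fell and 60 did not pass the test, against 10.6% of all genes that rose and 10.9% that fell (edgeR, 17879 genes). RPL10L had too few reads to be tested (2, 7, 3 and 4). Both shETV4 libraries lay above both shControl libraries in 73 members, and 32.6% of all genes showed that arrangement; the reverse held for 3 members and for 32.2% of all genes. The median log2 fold change was 0.25 for the members and -0.00 for all genes, and 78 members were above 0, among them each of the 46 60S members. Of these 46, 12 rose (median 0.25); of the 31 40S members, 10 rose (median 0.25). No member passed the DEG threshold, which 13% of all genes passed, so the rises were small and shared. At an unadjusted p below 0.05, 64 members were higher and 1, RPL3L, was lower (all genes: 18.5% and 18.1%), and no member fell under any alternative setting, DESeq2 and limma included.

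The number of RP genes that passed depended on single libraries far more than the direction did. The median was 0.21 without shControl replicate 1, 0.28 without shControl replicate 2, 0.33 without shETV4 replicate 1 and 0.15 without shETV4 replicate 2. Each of these fits left 1 library in a group, and the calls of members and over all genes changed with the library left out. DESeq2 called 40 members higher (12.7% of all genes), and 12 were higher with library totals in place of TMM factors (8.69% of all genes). shETV4 replicate 2 exceeded shETV4 replicate 1 in 79 of 83 members, by a median log2 value of 0.18, and shControl replicate 2 exceeded shControl replicate 1 in 77 of 83, by 0.07; over all genes the same medians were -0.00 and 0.00. RP levels thus varied together between replicates of a group as well as between groups.

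RPL24, a 60S protein at the subunit interface, had the largest rise, from 977 and 1115 FPKM with shControl to 1251 and 1486 FPKM with shETV4. The change was 31.6% (log2 fold change 0.40 ± 0.11 SE, n = 2 libraries per group, adjusted p = 0.0349); it passed under 11 of 15 alternative settings and was 0.23 without shETV4 replicate 2, below the 0.29 of RPL9. RPL9, a 60S protein at the base of the P stalk, rose from 1043 and 1103 FPKM to 1339 and 1387 FPKM (0.35 ± 0.07, adjusted p = 0.0135), with the smallest adjusted p of all members. RPS10, a 40S head protein mutated in Diamond-Blackfan anaemia, rose from 1012 and 1122 FPKM to 1309 and 1432 FPKM (0.35 ± 0.08, adjusted p = 0.0231). For each of these genes the libraries of the groups did not overlap. Read-through transcripts of RPS10 with NUDT3 share its span. RPL6 rose from 894 and 994 FPKM to 1149 and 1325 FPKM (0.34 ± 0.08, adjusted p = 0.0217), and RPS6 rose from 903 and 968 FPKM to 1128 and 1230.4 FPKM (0.34 ± 0.08, adjusted p = 0.022).

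The other members that rose covered both subunits. In the 40S subunit they included RPS12 (0.34), RPS27A (0.34), RPS3A (0.28), RPS18 (0.27), RPS4X (0.27), RPS15A (0.25) and RPSA (0.25), and in the 60S subunit they were RPL8 (0.32), RPL27A (0.32), RPL11 (0.32), RPL10 (0.32), RPL7 (0.30), RPL28 (0.29), RPL27 (0.28), RPL13A (0.25) and RPL15 (0.22). Of these listed genes, RPL15 passed under 5 of the 15 alternative settings and RPL28 under 6. RPL13A, RPS15A and RPL27 passed under 8, and the others under 9 to 13. Without shETV4 replicate 2, RPS12 (0.18), RPL27A (0.19), RPS27A (0.21), RPL8 (0.20) and RPL27 (0.17) were lower by more than 1.5 times. The median of all members was also lower there, at 0.15. RPL11, which binds MDM2 when free, rose from 790 and 832 FPKM to 954 and 1036 FPKM (adjusted p = 0.0287). Its partner in that complex, RPL5, had 1007 and 1077 FPKM with shControl and 1187 and 1179 FPKM with shETV4, and its log2 fold change of 0.19 ± 0.07 did not pass (adjusted p = 0.0846). RPL10, a late-joining 60S protein, rose from 424 and 466 FPKM to 540 and 556 FPKM (adjusted p = 0.0226). RPLP0, RPLP1 and RPLP2 had 0.15, 0.22 and 0.28 without passing, and RPS19 had 0.27 (adjusted p = 0.0653).

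A few members had log2 fold changes near or below 0. RPL3 had 1868 and 1911 FPKM with shControl and 1995 and 1869 FPKM with shETV4 (0.04 ± 0.06, adjusted p = 0.719). RPS16, a 40S protein at the tRNA path, had 772 and 785 FPKM against 750.3 and 752 FPKM (-0.05 ± 0.07), RPS29, a small zinc-binding 40S protein, had -0.04 ± 0.08, and RPS26 had 162 and 183 FPKM against 158 and 175 FPKM (-0.04 ± 0.09). RPL39L, with -0.13 ± 0.10, was the lowest of the members with at least 1 FPKM. None of these 5 passed the test. RPL3L had 11 and 17 reads with shControl and 6 and 4 reads with shETV4 (log2 fold change -1.46 ± 0.59, adjusted p = 0.112), too few for a direction.

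The members' values after ETV4 KD were also set against the letters described above. The 23 members with an ETS core had a median log2 fold change of 0.25 and 9 of them rose, and the 43 tested members of the RefSeq table without one had a median of 0.24 and 10 rose. For pyrimidine runs at the start, the 45 members with a run had a median of 0.25 and the 21 without had 0.25. After crowding, the medians were -0.01 with and -0.01 without an ETS core. Binding of ETV4 was not measured here. By implied length, members under 2 kb had a median of 0.25 after ETV4 KD and those of 2 kb or more 0.25. Among genes that are no members, the third with the shortest implied lengths had a median of 0.03 and the third with the longest -0.06; the part of length in the RP values was not tested.

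**Figure D3:**
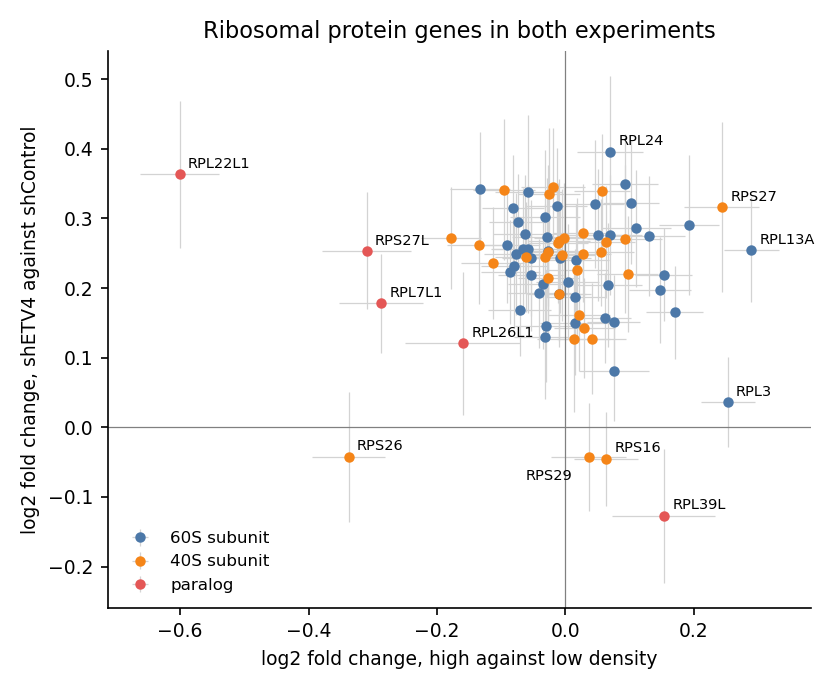
Log2 fold changes of 82 RP genes after crowding (x axis) and after ETV4 KD (y axis); points are genes, bars are standard errors of the edgeR fit, and RPL3L is not drawn because of its few reads. Most members lie near 0 on the x axis and near 0.25 on the y axis, and RPL22L1 stands at -0.60 and 0.36.

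The 2 experiments share no library, and ETV4 itself fell in both, so the members' values can be set side by side. RPL13A and RPL15 rose in both, and RPL22L1, RPL6 and RPS4X fell in crowded hESCs and rose after ETV4 KD. Together these were 21.7% of the members that rose after ETV4 KD. The first pair was 28.6% of those that rose in crowded hESCs, and the latter 3 were 42.9% of those that fell there. These shares rest on calls that varied with the setting. After ETV4 KD, RPL15 passed under 5 of the 15 alternative settings, RPL13A under 8 and the others under 10 to 13. In crowded hESCs RPL6 passed under 7, RPS4X under 10 and the others under 14 or 15. Of the members that rose after ETV4 KD, 8.7% rose and 13% fell in crowded hESCs, below the 14.9% and 36.4% of the 1867 genes that rose after ETV4 KD and were tested in both; the overlap was not tested. Across 82 members the log2 fold changes of the experiments had a Pearson r of -0.11, given as a description over genes that share libraries and depth. RPL3 and RPS27, which rose in crowded hESCs, had 0.04 and 0.32 after ETV4 KD, neither of them past the test, and RPS26, which fell in crowded hESCs, had -0.04.

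Paralogs replace or accompany their partner in particular tissues, and reads of a pair can be told apart only where they span a base that differs. By alignment of GENCODE coding sequences (GRCh37), RPL22 and RPL22L1 were identical at 70.6% of aligned bases with a longest shared run of 17 bases, RPL7 and RPL7L1 at 61.7%, RPL3 and RPL3L at 75.9%, RPS27 and RPS27L at 77.8%, RPL26 and RPL26L1 at 84.1% and RPL10 and RPL10L at 89.1%. RPL39 and RPL39L were identical at 94.8% with a shared run of 67 bases, so reads may be split between them and their values are uncertain. As a share of the FPKM of the pair, RPL22L1 (chr3:170582664-170587997, GRCh37, minus strand) made up 16.9% and 19.6% at low density and 12.5% and 12% at high density. With shControl the share was 22.6% and 24.6%, and with shETV4 it was 26.3% and 28.4%. The share thus fell without overlap in crowded hESCs and rose without overlap after ETV4 KD.

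RPL22 itself (chr1:6245080-6269449, GRCh37, minus strand), an RNA-binding 60S protein that is known to repress the expression of RPL22L1, did not pass the test in either experiment. It had 190 and 175 FPKM at low density and 196 and 203 FPKM at high density (0.08 ± 0.05, adjusted p = 0.286). After ETV4 KD it had 229 and 241 FPKM against 243 and 252 FPKM (0.08 ± 0.07, adjusted p = 0.456). RPL22L1 rose from 67.1 and 78.4 FPKM with shControl to 86.8 and 99.8 FPKM with shETV4 (0.36 ± 0.11, adjusted p = 0.0428), a call that was lost without shControl replicate 1 (0.27, adjusted p = 0.262), without shETV4 replicate 2 (0.23, adjusted p = 0.103) and with library totals in place of TMM factors (0.32, adjusted p = 0.0588). RPL26L1 and RPL39L did not pass in either experiment, and RPS27L and RPL7L1, which fell in crowded hESCs, had 0.25 (adjusted p = 0.0638) and 0.18 (adjusted p = 0.109) after ETV4 KD.

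**Figure D4:**
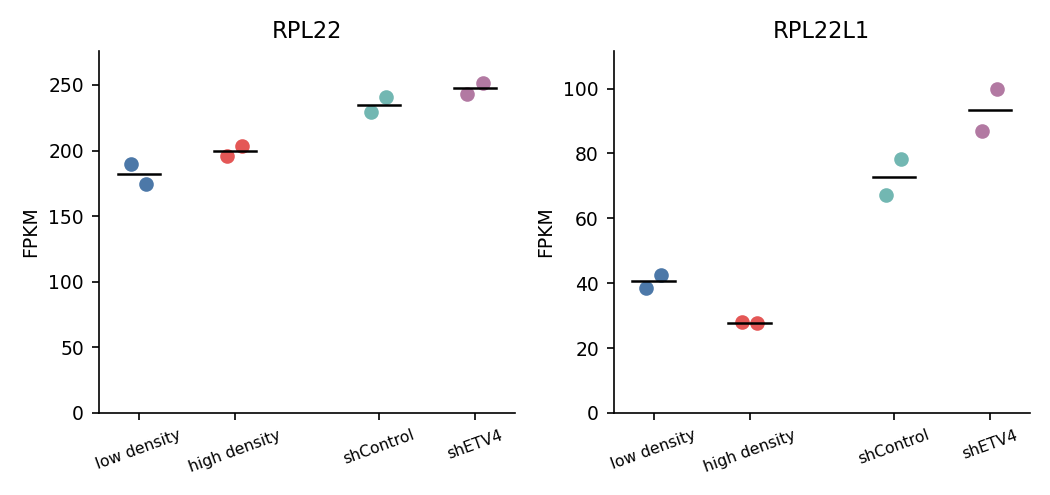
FPKM of RPL22 (left) and its paralog RPL22L1 (right) in the 8 libraries by group; points are libraries and bars are means of 2. RPL22L1 is lower at high than at low density (27.7 to 28.0 against 38.6 to 42.7 FPKM) and higher with shETV4 than with shControl, with no overlap, while RPL22 lies between 175 and 252 FPKM.

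Genes that build ribosomes were mostly lower in crowded hESCs. Of 55 ribosome biogenesis genes, 46 fell, 0 rose and 14 were DEGs, with a median of -0.34 against -0.01 for the members. MRTO4, an assembly factor of the pre-60S particle, fell from 40.2 and 38.1 FPKM to 26.1 and 21.8 FPKM (-0.76 ± 0.07, edgeR adjusted p = 5.12e-07). EBNA1BP2 (-0.62), PES1 (-0.61) and BOP1 (-0.57), which process pre-60S rRNA, fell with it. Of 31 initiation factors 20 fell and 1 rose (median -0.19), including EIF4G1, the scaffold of the cap-binding complex (-0.52, adjusted p = 2.27e-06). Of 78 mitochondrial RP genes 30 fell and 3 rose (median -0.14). Over all genes 19.4% rose and 20.3% fell, and the difference between these lists and the RP genes was not tested. Among 20 elongation factors and other TOP mRNAs, 7 rose and 4 fell (median 0.06): EEF2 (0.26), EEF1A1 (0.21) and EIF4B (0.38) rose, and EEF1B2 (-0.26) and VIM (-1.07) fell. Protein-coding genes of at least 100 FPKM that are no members had a median of -0.12, with 64 rising and 207 falling of 443.

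After ETV4 KD the medians of the same lists lay between those of all genes and of the RP genes, and the differences between the lists were not tested. Of 55 ribosome biogenesis genes 15 rose and 0 fell (median 0.14), among them PPAN (0.67), RRS1 (0.62), NIP7 (0.51) and NOP56 (0.46). Initiation factors had 7 rises and 2 falls of 31 (median 0.10), with EIF4EBP1, the cap-binding inhibitor that mTORC1 phosphorylates, at 0.69 (adjusted p = 0.00591). Mitochondrial RP genes had 6 rises and 2 falls of 78 (median 0.09), and elongation factors and other TOP mRNAs 5 rises and 1 fall of 20 (median 0.11). Over all genes 10.6% rose and 10.9% fell. Of 4 ribosomal proteins whose names fall outside the RP rule, RACK1 (0.33, adjusted p = 0.0166) and FAU (0.32, adjusted p = 0.036) rose, and RPL36AL (0.02) did not pass. The 476 other protein-coding genes of at least 100 FPKM had a median of 0.10, with 97 rising and 39 falling, and the 98 of these under 1 kb had 0.09. Among the TOP mRNAs, the elongation factor subunits EEF1B2 (0.31, adjusted p = 0.044) and EEF1G (0.27, adjusted p = 0.0276), the histone chaperone NAP1L1 (0.26, adjusted p = 0.0406) and TPT1 (0.24, adjusted p = 0.0455) rose, EIF4A2 fell (-0.34, adjusted p = 0.0267), and EEF1A1 and EEF2 had 0.03 and 0.09 and did not pass.

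**Figure D5:**
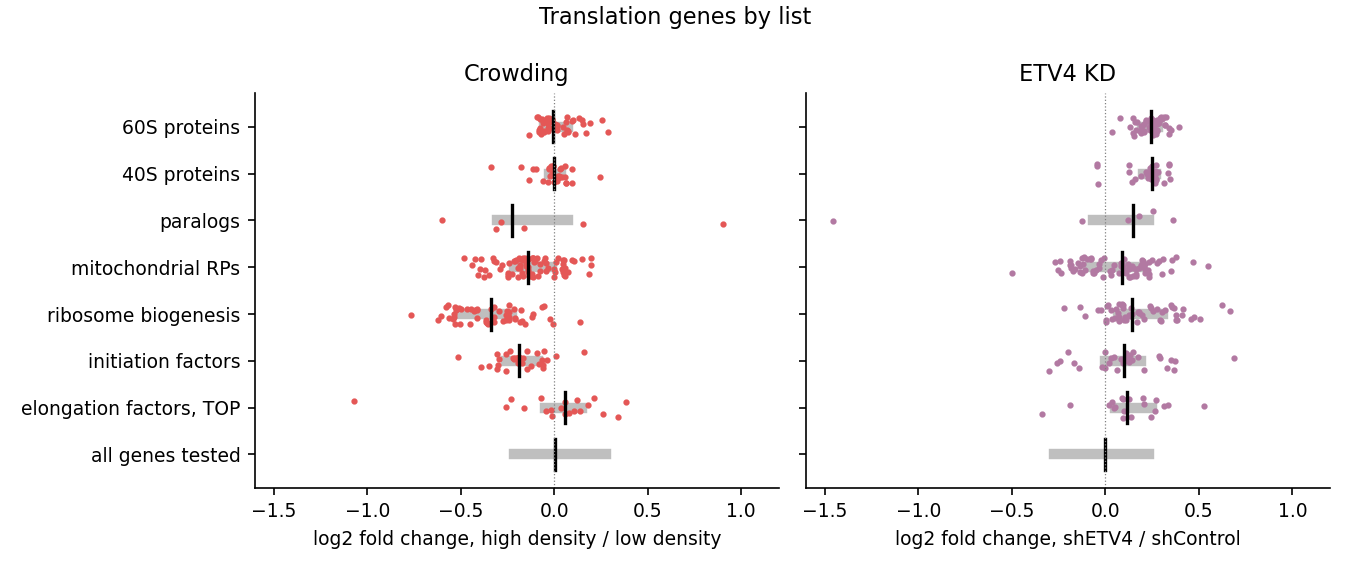
Log2 fold changes of RP genes by subunit and of other translation genes after crowding (left) and ETV4 KD (right); points are tested genes, thick grey bars run from the first to the third quartile, and black lines are medians (for all genes only these are drawn). In crowded hESCs the ribosome biogenesis list is centred at -0.34 and the 60S and 40S lists at 0, and after ETV4 KD the 60S and 40S lists are centred at 0.25.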

How the data were processed

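Per the labels and the study's methods, the authors trimmed the paired reads (2 x 100 bases) with Trimmomatic, mapped them to GRCh37 with HISAT2 2.1.0, assembled known transcripts with StringTie 2.1.3b, and deposited 1 table per experiment with read counts per gene, not normalized, and FPKM values, normalized by transcript length and mapped reads. The tables also hold the authors' fold changes and p-values, which were not used, and 16 other per-sample columns were left unused. Counting by strand is not given in the sources used here.

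Counts were tested within each table by robust quasi-likelihood fits of edgeR 4.0.16 (TMM, filterByExpr; R 4.3.3) with Benjamini-Hochberg adjustment over all genes tested; each standard error was derived from the fold change and its F statistic. The tests were tried on simulated counts. Alternatives were DESeq2 1.42.0 and its size factors, library totals, TMM factors without the members, other count filters, limma 3.58.1 on log2(FPKM + 0.5, 0.1 or 1) for genes of at least 0.5 FPKM or all genes, the replicate number as a block, and each library left out. Depth was 50359703 to 62410168 counts per library, so replicate differences, not counting, limit precision for abundant genes; for genes with few reads, counting error also matters.

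The RP family, whose members were taken by name, and the lists and tests were chosen with earlier results of these data known. Named genes were member DEGs, the 5 largest rises and falls per experiment, the 5 highest and 5 lowest levels, paralogs with partners, members with roles in stress response or signalling, and chosen regulators; members past the test and the leading genes of the other lists were added after their values were seen. Results for some genes are not reported here. Groups came from the labels, and duplicates were checked for and not found. Start regions are RefSeq's (GRCh38.p14); positions and coding sequences are GENCODE 44's on GRCh37. Paralogs were compared by coding sequence in place of protein.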

Additional observations from a re-analysis of the deposited data

How the results depend on the processing

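In crowded hESCs the members that rose numbered 16 with library totals in place of TMM factors, 13 with limma at a pseudocount of 0.5 or 0.1, 12 at 1 and 11 with all genes, against 7; those that fell numbered 3 in each of the limma fits with the FPKM minimum and 2 with all genes, against 7. Over all genes 22.9% rose with library totals, 21.5% in each limma fit with the FPKM minimum and 15.4% without it, against 19.4%. The median of the members was 0.038 with library totals, 0.058 in each limma fit with the FPKM minimum and 0.061 with all genes, against -0.0084. Leaving out 1 library in turn gave 3 to 10 members higher, 4 to 7 lower and medians of -0.018 to 0.0104, and RPL22L1 was the only DEG in each setting. Each of these left-out fits kept 1 library in a group, and rises over all genes varied with the library left out as well. Rises were fewest without low density replicate 1, both among the members and over all genes. As a share of summed FPKM, members rose by 0.419 percentage points against 0.276 by counts.

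After ETV4 KD the members that rose numbered 12 with library totals, 40 with DESeq2 and 11 without a filter on low counts, against 23. They numbered 5 with limma on all genes and 73 with the replicate block. The shares of all genes that rose were 8.69%, 12.7%, 8.44%, 5.93% and 19.6% in turn, against 10.6%, so the calls changed over all genes too. Leaving out 1 library in turn gave 0 to 70 members higher, 0 to 2 DEGs (the 2 without shETV4 replicate 1) and medians of 0.15 to 0.33. Each of these left-out fits kept 1 library in a group, and rises over all genes varied with the library left out as well. Both among the members and over all genes, rises were fewest without shControl replicate 1 and most frequent without shETV4 replicate 1. As a share of summed FPKM the rise was 1.71 percentage points against 0.934. The replicate numbers name no shared culture, so the block is given here only. Over all genes tested, deviations of same-numbered libraries correlated at -0.04 for crowding and 0.09 for ETV4 KD. That value does not describe the members alone. In the ETV4 KD experiment replicate 2 exceeded replicate 1 in 77 of 83 members with shControl and in 79 of 83 with shETV4. No named gene turned its direction past the test; of the named genes' values under the alternatives, 31 lost and 12 gained a call for crowding, and 110 lost and 21 gained one for ETV4 KD. The cause of these changes was not tested. Depth left RPL3L and RPL10L without a usable value.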

Other observations

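Of 20 mTORC1 and MYC regulators of ribosome production, 6 fell and 4 rose in crowded hESCs (median -0.05), and 3 fell and 5 rose after ETV4 KD (median 0.04). Over all genes 20.3% fell and 19.4% rose in crowded hESCs, and 10.9% fell and 10.6% rose after ETV4 KD. MYC, which drives transcription of RP and ribosome biogenesis genes, fell from 17.1 and 18.2 FPKM to 13.8 and 11.7 FPKM (log2 fold change -0.54 ± 0.07, edgeR adjusted p = 9.89e-06), and MYCN fell from 47.9 and 48.6 FPKM to 39.0 and 35.1 FPKM (-0.43 ± 0.06). LARP1, the TOP mRNA-binding protein, fell by 0.15 (adjusted p = 0.0229), and MTOR had -0.08 (adjusted p = 0.296), whereas MYCL (0.48), the mTORC1 inhibitor TSC1 (0.31) and its activator RHEB (0.15) rose. After ETV4 KD, MYCN rose (0.32, adjusted p = 0.0394), MYC had -0.25 (adjusted p = 0.160), MTOR fell (-0.40, adjusted p = 0.0154) and MAF1, a repressor of RNA polymerase III, fell (-1.12). DDIT4, an inhibitor of mTORC1, rose in both experiments (1.55 and 1.37).

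Targets of p53, the transcription factor that free RPL5 and RPL11 can stabilize through MDM2, were counted in both experiments, and the difference between the experiments was not tested. In crowded hESCs 11 of 22 fell and 3 rose, against 20.3% and 19.4% of all genes tested. CDKN1A (-0.73), PLK2 (-1.77) and MDM2 (-0.33) were among those that fell. After ETV4 KD 8 rose and 1 fell, against 10.6% and 10.9% of all genes tested. MDM2 rose from 15.7 and 14.0 FPKM to 22 and 19.4 FPKM (0.47 ± 0.08, edgeR adjusted p = 0.00711). FAS had 1.06 and BTG2 1.04, while CDKN1A had -0.06 (edgeR adjusted p = 0.739). Transcripts of the 13 mitochondrially encoded mRNAs took up 5.61% and 5.77% of the counts at low density and 6.57% and 6.82% at high density, and 9 of the 13 rose (median 0.19). They took up 5.47% and 5.62% with shControl and 5.42% and 5.05% with shETV4, where 1 rose and 1 fell (median -0.05).

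Sequences from 372 RP pseudogene rows in the crowding table and 370 in the ETV4 KD table held only 0.138% to 0.180% of the counts per library, so few reads were assigned to them.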
